A study of Capra hircus with 6 samples.

Results

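Aminoacyl-tRNA synthetases attach each amino acid to its tRNA before translation, and their transcripts were followed in goat dermal papilla cells cultured with or without all-trans retinoic acid (ATRA). The members were the genes that the KEGG annotation beside the deposited counts places in "Aminoacyl-tRNA biosynthesis". There were 44 of them among the 15944 genes listed. By where the enzymes work, 19 were cytosolic synthetases, 17 were mitochondrial synthetases, and 2 (GARS and KARS) each encode an enzyme used in both compartments. The other 6 act on tRNA that is already charged. Gene symbols are those of the counts table, in which AARS, EPRS and similar names stand for the genes now written AARS1 and EPRS1.

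The cells were wild-type primary cultures from the skin of adult Albas cashmere goats (Capra hircus), aged 3 years, grown out of secondary hair follicles, which produce the cashmere fibre. Both groups were cultured in DMEM/F-12 with 10% fetal bovine serum, and cells of passages 4 to 7 were used. The 3 ATRA libraries came from cells exposed to 100 µM ATRA, a vitamin A metabolite that acts through nuclear receptors, for 24 h. The 3 Control libraries came from cells without ATRA, and all 6 libraries carry the same batch label. The methods describe the libraries of a group as biological replicates and name cells of 3 animals, but the labels tie no library to an animal, so the p-values measure the spread between these libraries.

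A cell carries a pair of charging systems. Cytosolic synthetases supply the ribosomes that translate nuclear transcripts, whereas a separate set, encoded in the nucleus and imported, supplies the ribosomes inside mitochondria. Each system covers the amino acids, usually with a gene of its own for each. Many of the cytosolic genes are known targets of ATF4, the transcription factor of the amino acid response.

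Library totals were 35532339 to 38012771 counts, and the members took 0.528 to 0.535% of them in Control and 0.542 to 0.544% with ATRA. Levels are normalized CPM, counts scaled to a common library size (CPM) with TMM factors, and differences are log2 fold changes (ATRA minus Control) with edgeR's quasi-likelihood test and Benjamini-Hochberg adjustment over 12588 tested genes. A gene is said to have risen or fallen where the adjusted p was under 0.05. ATRA moved most of the transcriptome, with 5151 genes higher (40.9%) and 4877 lower (38.7%). Scaled by library size only, the same counts gave 7921 genes higher and 2861 lower, because the median log2 fold change of all tested genes went from 0.04 to 0.52. Directions that turn under that scaling are named where they occur. Of 10 dermal papilla and mesenchyme markers, PROM1, ALPL and CORIN had at most 3 counts in any library, and the 6 markers tested all fell, from -9.62 for ACTA2 to -0.54 for LEF1. SOX2, with too few counts to be tested, went from 5, 0 and 2 counts in Control to 10, 16 and 9 with ATRA. The summed level of the 10 fell from between 46309 and 48128 CPM (unscaled) to between 2732 and 2771 CPM. The summed markers of melanocytes, leukocytes, endothelial cells or keratinocytes reached at most 13.9 CPM in any library, and those of the endothelial list (PECAM1, CDH5, VWF and KDR) were between 0.271 and 0.474 CPM in Control and between 6.11 and 9.60 CPM with ATRA. The leukocyte sum went from between 2.21 and 4.80 CPM to between 12.4 and 13.9 CPM (CD68, log2 fold change 1.41). The keratinocyte sum went from between 2.64 and 4.21 CPM to between 6.43 and 7.04 CPM, mostly from KRT10 (0.82). KRT14 went the other way, from 20, 14 and 10 counts in Control to 3, 0 and 0 with ATRA. KRT5 did so from 2, 7 and 3 counts to 0, 0 and 0, and EPCAM and CDH1 had at most 5 counts in any library. PECAM1, with 0 counts in every Control library, made up nearly all of the endothelial sum with ATRA, whereas CDH5 had at most 3 counts in any library. KDR went from 5, 6 and 10 counts in Control to 2, 1 and 0 with ATRA, and VWF did not pass (0.06). The part of these changes in the results on the synthetases was not tested. In bulk RNA, fewer cells of a kind and less transcript per cell cannot be told apart.

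The 2 sets of synthetases did not move alike. Of 18 cytosolic synthetases tested, 14 fell, 1 rose (QARS) and 3 did not pass the test, where 38.7% of all tested genes fell and 40.9% rose. Of the 17 mitochondrial synthetases, 5 fell, 7 rose and 5 did not pass. All 33 members called, including those of both compartments and the other 6 genes, divided into 13 that rose and 20 that fell. The median log2 fold change was -0.55 for the cytosolic set (from -1.02 to 0.29) and 0.01 for the mitochondrial set (up to 0.89), beside 0.04 for all genes. With library size only, 4 cytosolic synthetases rose and 9 fell, and 12 mitochondrial synthetases rose and 1 fell. The difference between the medians, cytosolic minus mitochondrial, was -0.55 and does not depend on the scaling. The cytosolic set had more reads per gene than the mitochondrial set. Among the 3526 genes whose mean level lay in the range of the cytosolic set (55.8 to 568 CPM), 45.9% fell and the median was -0.07. Among the 8089 genes in the range of the mitochondrial set (5.21 to 102 CPM), 37.6% fell, 41.9% rose and the median was 0.05.

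**Figure D1:**
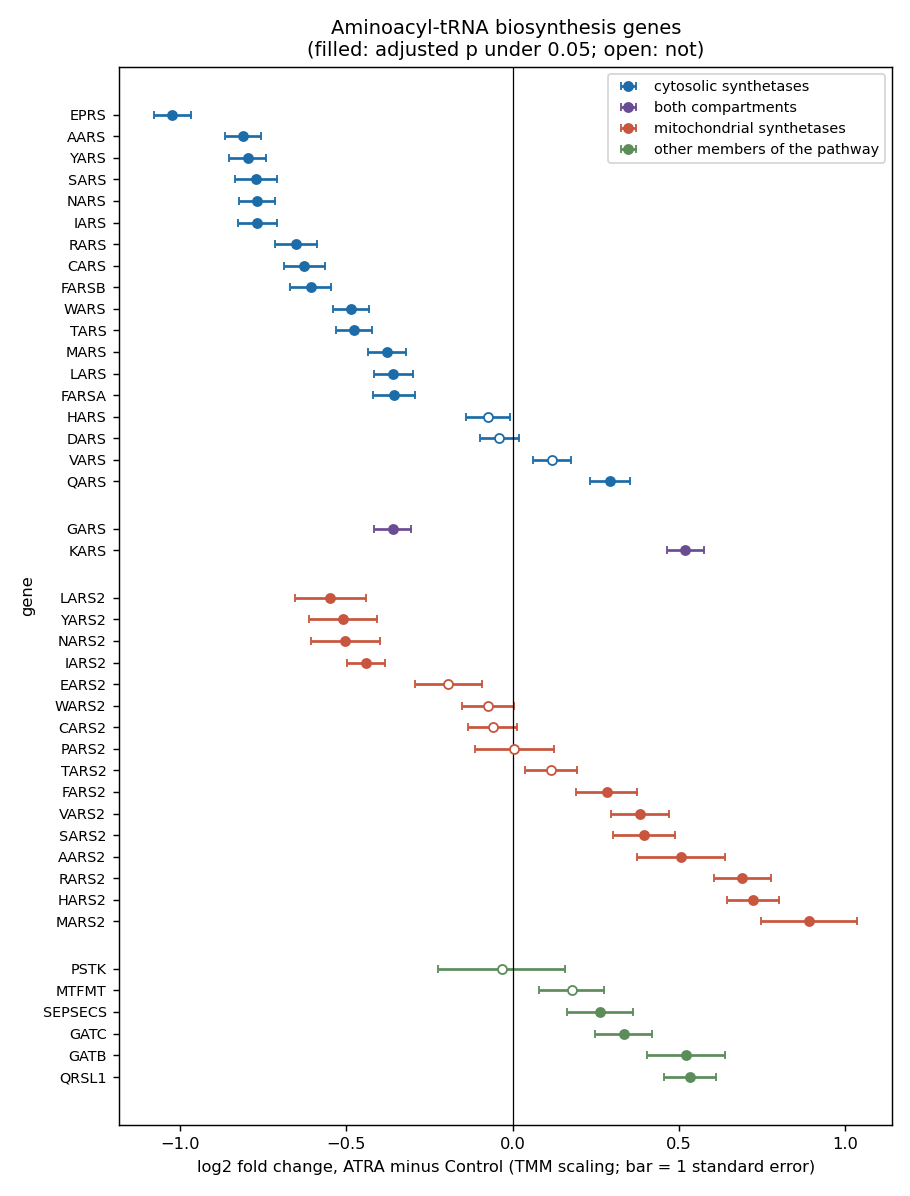
Log2 fold change (ATRA minus Control, x axis) of 42 of the 43 tested members, grouped by compartment, with a bar of 1 standard error and filled points where the adjusted p was under 0.05. Cytosolic synthetases lie mostly left of 0 (14 of 18 fell) and mitochondrial ones on both sides of it; with scaling by library size only, the called TARS, MARS, LARS, FARSA, GARS and IARS2 and the uncalled HARS, DARS, EARS2, WARS2, CARS2 and PSTK move to the right of 0.

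All ATRA libraries lay below all Control libraries for 20 members and above them for 13, where 39.0% and 41.2% of all tested genes did so. The larger threshold of the study, an absolute log2 fold change above 1 with an unadjusted p under 0.05, took in 0 members that rose (13.7% of all genes) and 2 that fell, EPRS among them (17.3% of all genes). The members' changes were therefore mostly of moderate size. MARS2, the member with the highest log2 fold change, lay at percentile 84.2 of all tested genes.

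Among the cytosolic enzymes, EPRS fell most. It encodes a single protein with both the glutamyl- and the prolyl-tRNA synthetase. Its level was 622, 631 and 624 CPM in the Control libraries and 300.5, 314 and 310.0 CPM in the ATRA libraries. The groups were far apart, and the log2 fold change was -1.02 (SE 0.0545, adjusted p = 3.88e-12). AARS, which charges alanine, fell from 741, 716 and 713 CPM to 409, 406 and 423 CPM. Its log2 fold change was -0.81 (SE 0.0551, adjusted p = 1.48e-10), and every ATRA library was below every Control library. YARS, the tyrosine enzyme, measured 171, 159.5 and 163 CPM in Control and 95.4, 92.5 and 95.9 CPM with ATRA. The fall of 0.80 on the log2 scale had an adjusted p of 2.23e-10, and the 3 ATRA libraries lay close together.

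SARS charges serine and also the tRNA on which selenocysteine is made. It gave 634, 615 and 588 CPM in Control and 376, 331 and 369.5 CPM with ATRA (log2 fold change -0.77, adjusted p = 1.73e-09). The groups did not overlap, although its ATRA libraries spread more widely than those of NARS. NARS, the asparagine enzyme, fell from 337, 322 and 338 CPM to 196, 196 and 194 CPM, with the same log2 fold change of -0.77 (adjusted p = 1.85e-10). IARS (isoleucine, -0.77), RARS (arginine, -0.65), CARS (cysteine, -0.63), FARSB (the beta subunit of the phenylalanine enzyme, -0.61) and WARS (tryptophan, -0.49) fell as well, of which WARS lost its call with library size only (-0.00675, adjusted p = 0.908). TARS (threonine, -0.48), MARS (methionine, -0.38), LARS (leucine, -0.36) and FARSA (the alpha subunit for phenylalanine, -0.36) also fell, but their values turned positive with scaling by library size only, from 0.00126 for TARS to 0.12 for FARSA. The subunits FARSA and FARSB form 1 enzyme, and both fell.

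The cytosolic enzymes that did not fall were those for glutamine, valine, aspartate and histidine. QARS, for glutamine, rose from 109.7, 99.0 and 100.1 CPM to 129, 119.8 and 129.5 CPM (log2 fold change 0.29, SE 0.0606, adjusted p = 2.48e-04). Every ATRA library was above every Control library. VARS, for valine, gave 150.5, 138 and 143 CPM in Control and 159, 149.9 and 159 CPM with ATRA. These ranges touched, and the log2 fold change of 0.12 had an adjusted p of 0.0650, which passed the threshold with the replicate block (0.0478) and in 4 other alternatives. DARS, for aspartate, gave 80.2, 84.8 and 80.7 CPM in Control and 78.7, 78.5 and 81.7 CPM with ATRA (log2 fold change -0.04, SE 0.0585, adjusted p = 0.535). HARS, for histidine, gave 67.6, 62.6 and 63.1 CPM in Control and 63.9, 57.0 and 62.9 CPM with ATRA (log2 fold change -0.07, SE 0.0663, adjusted p = 0.319). The groups of DARS and of HARS overlapped, but with library size only both turned and passed the test, DARS at 0.44 (adjusted p = 2.75e-06) and HARS at 0.41 (adjusted p = 2.1e-05). TARSL2, a second threonine enzyme, had 0 counts in each Control library and 3, 1 and 0 counts with ATRA, so it was not tested. TARS and TARSL2 are similar in sequence, and how the counting assigned reads that fit both is not known.

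In mammals, 8 of the enzymes (EPRS, IARS, LARS, MARS, QARS, RARS, KARS and DARS) are bound into the multisynthetase complex. Of these, 5 fell, 2 rose (QARS and KARS) and 1, DARS, did not pass, where 38.7% of all tested genes fell and 40.9% rose. Of the 11 cytosolic enzymes outside the complex that were tested, 9 fell and 0 rose, with a median of -0.61 beside -0.38 for the 7 cytosolic ones inside it. Synthetases also divide into 2 structural classes. The cytosolic class I enzymes had a median of -0.56 (8 of 10 fell) and the class II enzymes one of -0.54 (6 of 8 fell).

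KARS and GARS, which give both compartments their lysine and glycine enzymes, moved in opposite directions. KARS rose from 362, 336 and 339 CPM to 492, 497 and 497 CPM (log2 fold change 0.52, SE 0.0556, adjusted p = 9.78e-08). GARS fell from 719.6, 739.8 and 741 CPM to 586, 554 and 573 CPM (log2 fold change -0.36, SE 0.0551, adjusted p = 9.21e-06), a change that turned to 0.12 with scaling by library size only. In both genes the groups stood apart. Gene counts do not separate the cytosolic from the mitochondrial transcript forms of either gene.

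Mitochondrial enzymes that fell included LARS2 (leucine, -0.55), YARS2 (tyrosine, -0.51), NARS2 (asparagine, -0.50) and IARS2 (isoleucine, -0.44), of which IARS2 turned to 0.04 with library size only. LARS2, YARS2 and NARS2 kept their sign but did not pass the test under that scaling. In each of these 4 genes every ATRA library was below every Control library.

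Of those that rose, MARS2, for methionine, had the largest log2 fold change. It gave 3.41, 4.30 and 3.24 CPM in Control and 6.41, 6.46 and 7.47 CPM with ATRA (log2 fold change 0.89, SE 0.144, adjusted p = 1.81e-05). Its standard error was the largest among the synthetases, and the groups did not overlap. HARS2, for histidine, rose from 22.4, 21.1 and 20.3 CPM to 37.2, 33.5 and 34.6 CPM (log2 fold change 0.72, SE 0.0769, adjusted p = 9.13e-08). HARS and HARS2 lie beside each other in the ARS1.2 goat assembly, with 71 bases between their annotated ends, and are similar in sequence, so some reads may be shared. RARS2, for arginine, rose from 13.7, 13.8 and 12.8 CPM to 22.8, 20.9 and 21.2 CPM (log2 fold change 0.69, SE 0.0850, adjusted p = 6.25e-07). AARS2 (0.51), SARS2 (0.40), VARS2 (0.38) and FARS2 (0.28) also rose. The FARS2 call was lost without Control replicate 2 (adjusted p = 0.0549) and without ATRA replicate 3 (adjusted p = 0.0620).

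The mitochondrial enzymes that did not pass were EARS2 (glutamate, -0.19), WARS2 (tryptophan, -0.07), CARS2 (cysteine, -0.06), PARS2 (proline, 0.01) and TARS2 (threonine, 0.12). With library size only all 5 passed as higher, so that EARS2 (0.29, adjusted p = 0.0155), WARS2 (0.40, 1.88e-04) and CARS2 (0.42, 4.28e-05) turned, while PARS2 was at 0.48 (adjusted p = 0.00121) and TARS2 at 0.59 (adjusted p = 2.14e-06). TARS2 also passed with upper-quartile scaling (0.19, adjusted p = 0.0332), and EARS2 passed as lower without ATRA replicate 2 (-0.25, adjusted p = 0.0377). CARS2 measured 29.7, 29.2 and 29.0 CPM in Control and 27.3, 27.4 and 29.6 CPM with ATRA (SE 0.0728, adjusted p = 0.454), and its groups overlapped.

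Comparing the cytosolic with the mitochondrial gene for the same amino acid within each library gives a ratio that does not depend on how libraries are scaled. There were 18 such gene pairs over 17 amino acids, in which EPRS and FARS2 each serve in 2 pairs. In 15 pairs the ratio was lower in every ATRA library than in every Control library. The other 3 pairs did not show this, and in YARS/YARS2 and LARS/LARS2 the libraries overlapped. Groups often stood apart in these data. Of all tested genes taken singly, 39.0% were lower in every ATRA library and 41.2% were higher. The share among ratios of other gene pairs was not computed, so the count of pairs has no background of its own. The exact two-sided permutation test of 3 libraries against 3 cannot go below p = 0.1, the value reached by each pair that did not overlap.

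**Figure D2:**
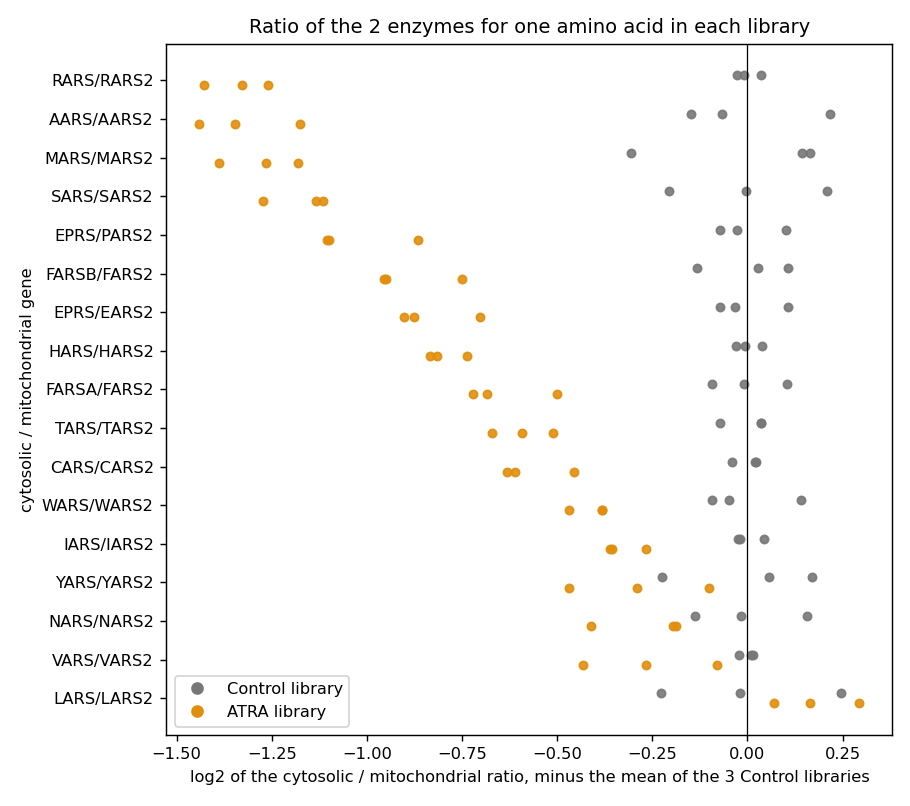
Log2 ratio of the cytosolic to the mitochondrial gene for the same amino acid in each of the 6 libraries, as the distance from the Control mean (x axis), for 17 of the 18 gene pairs. ATRA libraries lie left of all Control libraries in 15 pairs (RARS/RARS2 furthest, with a mean difference of -1.34) and overlap them in YARS/YARS2 and LARS/LARS2. Of all tested genes taken singly, 39.0% were lower and 41.2% higher in every ATRA library, and the share for other gene pairs was not computed.

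The ratio fell furthest for arginine. The log2 ratio of RARS to RARS2 was 2.80, 2.84 and 2.78 in Control and 1.38, 1.48 and 1.55 with ATRA, a difference of -1.34 or a ratio 2.53-fold lower. RARS itself fell from 95.2, 98.8 and 87.5 CPM to 59.3, 58.2 and 61.9 CPM (adjusted p = 2.82e-08), so the cytosolic and the mitochondrial gene moved in opposite directions. For alanine, the log2 ratio of AARS to AARS2 went from 6.87, 6.79 and 7.15 to 5.59, 5.76 and 5.49, a difference of -1.32 (2.50-fold lower). AARS2 rose from 6.35, 6.49 and 5.01 CPM to 8.49, 7.50 and 9.38 CPM (log2 fold change 0.51, adjusted p = 0.00187) while AARS fell. For methionine, the log2 ratio of MARS to MARS2 went from 6.04, 5.57 and 6.02 to 4.70, 4.61 and 4.49, a difference of -1.28 (2.42-fold lower). MARS gave 225, 204 and 210.0 CPM in Control and 166, 158 and 168 CPM with ATRA (adjusted p = 7.34e-06), a fall that turned to 0.10 with library size only, while MARS2 rose under each scaling.

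The pairs SARS/SARS2 (-1.18), EPRS/PARS2 (-1.02), FARSB/FARS2 (-0.89), EPRS/EARS2 (-0.83) and HARS/HARS2 (-0.80) were also far from 0. The smallest differences without overlap were those of NARS/NARS2 and VARS/VARS2 (both -0.26). For asparagine both genes fell, the cytosolic one further, and for valine the difference came mainly from the rise of VARS2. LARS/LARS2 differed by 0.18 (exact permutation p = 0.3) and YARS/YARS2 by -0.29 (exact permutation p = 0.2), and in both pairs the 2 genes fell together with TMM scaling, LARS turning to 0.12 with library size only.

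**Figure D3:**
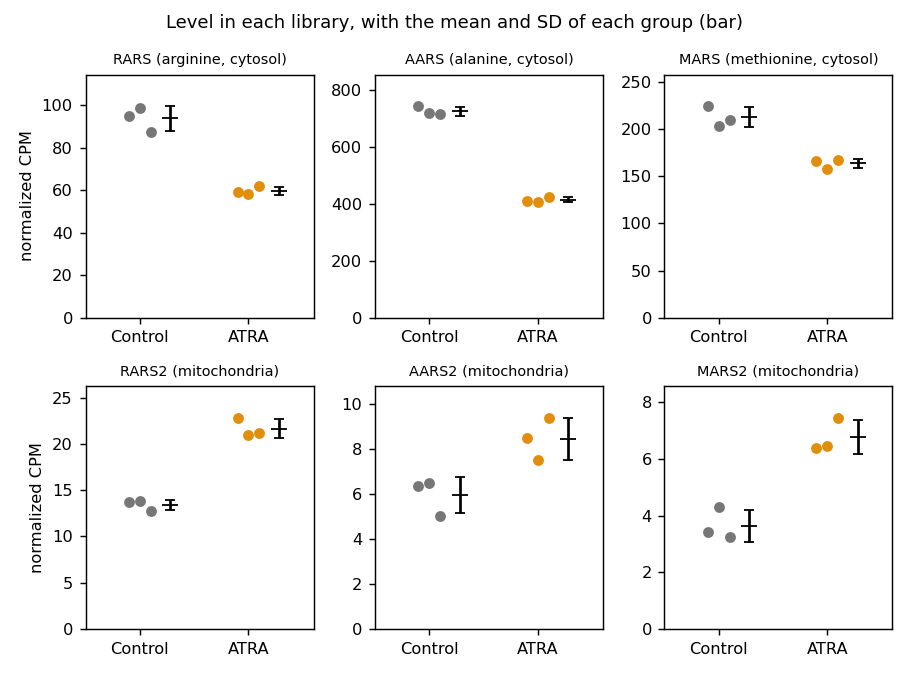
Normalized CPM (y axis, from 0) in each library for the cytosolic (top) and mitochondrial (bottom) genes of arginine, alanine and methionine, with the mean and SD of 3 libraries as bars. In all 3 the cytosolic gene fell and the mitochondrial gene rose (MARS turns to 0.10 on the log2 scale with library size only).

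Summed over genes, the cytosolic set went from 4748 ± 70.2 CPM in Control to 3077 ± 46.5 CPM with ATRA (SD, n = 3 libraries each). The mitochondrial sum was 381 ± 7.93 CPM and 366 ± 5.97 CPM, and the highest ATRA library (373 CPM) lay just below the lowest Control library (375 CPM). IARS2, the gene of this set with the highest level, fell from a mean of 117 CPM to 86.3 CPM with TMM scaling. That is more than the fall of the sum, so the other mitochondrial genes together were higher with ATRA. GARS and KARS summed to 1079 ± 3.23 CPM and 1067 ± 13.9 CPM, as the fall of the first and the rise of the second nearly balanced. These sums depend on the scaling, whereas their ratio does not. The ratio of the cytosolic to the mitochondrial sum was 12.7, 12.1 and 12.5 in Control and 8.48, 8.33 and 8.38 with ATRA, a difference of -0.57 on the log2 scale. Transcript lengths were not used, so only the change of this ratio is read and not its size.

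**Figure D4:**
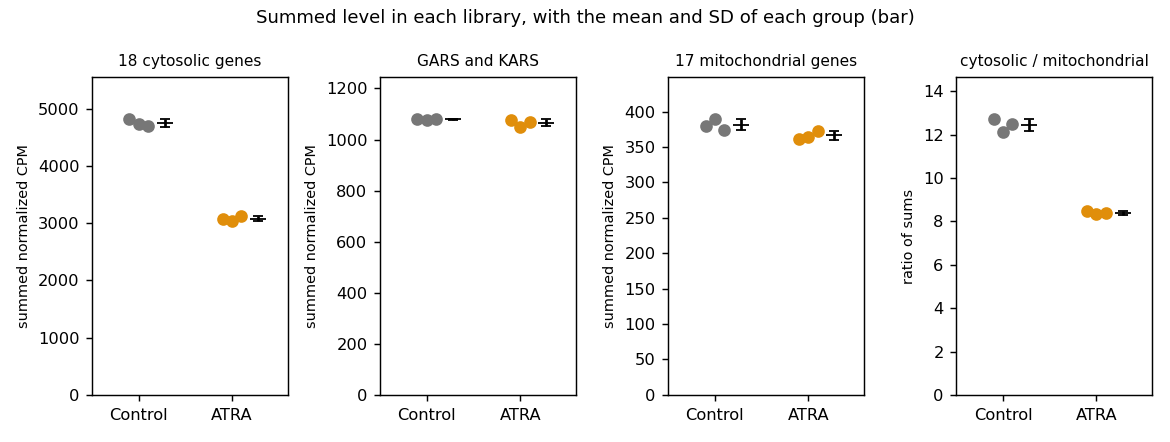
Summed normalized CPM of the 18 cytosolic synthetases, of GARS and KARS, and of the 17 mitochondrial synthetases, and the ratio of the cytosolic to the mitochondrial sum (y axes, from 0), in each library with the group mean and SD as bars. The ratio was 12.5 ± 0.293 in Control and 8.40 ± 0.0786 with ATRA.

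The other 6 members finish an amino acid on its tRNA. QRSL1, GATB and GATC form the amidotransferase that turns glutamate into glutamine on mitochondrial tRNA, and all 3 rose. QRSL1 went from 17.7, 18.6 and 19.5 CPM to 26.0, 27.6 and 27.1 CPM (log2 fold change 0.53, SE 0.0781, adjusted p = 5.58e-06). GATB went from 10.7, 10.4 and 8.13 CPM to 12.3, 14.7 and 15.0 CPM (log2 fold change 0.52, SE 0.117, adjusted p = 5.63e-04). GATC rose by 0.33 (adjusted p = 0.00164), and in each of the 3 genes the ATRA libraries were above the Control libraries. EARS2, which charges that tRNA with glutamate first, gave -0.19 (adjusted p = 0.0877), turning to 0.29 with library size only. SEPSECS, the last enzyme of selenocysteine synthesis, rose by 0.26 (adjusted p = 0.0213), but its groups overlapped and the call was lost without Control replicate 1 (0.151), Control replicate 2 (0.0628) or ATRA replicate 3 (0.0578). PSTK, the kinase of the step before, gave -0.03 (adjusted p = 0.877) and turned to 0.44 with library size only (adjusted p = 0.0379). MTFMT, which formylates the mitochondrial initiator methionine, gave 0.18 (adjusted p = 0.104) although its libraries did not overlap, and passed with upper-quartile scaling (0.25, adjusted p = 0.0243) and library size only (0.66, adjusted p = 8.92e-06).

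The scaffold proteins of the multisynthetase complex are not listed in the KEGG set. AIMP1 rose from 61.5, 64.2 and 59.8 CPM to 93.3, 85.6 and 89.8 CPM (log2 fold change 0.53, SE 0.0617, adjusted p = 2.67e-07). AIMP2 fell by 0.36 (adjusted p = 9.47e-04) and EEF1E1, also called AIMP3, by 0.41 (adjusted p = 4.19e-05), and both turned positive with library size only (0.12 and 0.06). The 3 scaffolds thus did not move together with TMM scaling, whereas with library size only all 3 were positive (AIMP1 at 1.01). Of 5 genes for the editing or nuclear export of tRNA, DTD1 (-0.72) and DTD2 (-0.97), which remove D-amino acids from tRNA, fell, and 3 did not pass. Over all tested genes, 38.7% fell and 40.9% rose.

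The next step of translation was followed through elongation factors. Of 7 genes for cytosolic factors and their kinase, 4 rose, 2 fell and 1 did not pass, beside 40.9% higher and 38.7% lower over all tested genes. EEF2, which moves the ribosome along, rose from 3225, 3104 and 3193 CPM to 4592, 4536 and 4818 CPM (log2 fold change 0.55, adjusted p = 6.86e-08), and EEF1B2 rose by 0.47. EEF2K, the kinase that inhibits EEF2, fell from 195, 206 and 206 CPM to 55.0, 56.7 and 54.5 CPM (log2 fold change -1.87, adjusted p = 8.30e-16). Of 10 mitochondrial translation factors, 6 rose, 1 fell and 3 did not pass, with a median of 0.23. Over all tested genes, 40.9% rose, 38.7% fell and the median was 0.04. TUFM, the mitochondrial factor that delivers charged tRNA, rose by 0.33 (adjusted p = 1.52e-04), as did C17H12orf65 (a release factor known as MTRFR, by 0.39). GFM1, a mitochondrial elongation factor, fell by 0.40, which turned to 0.08 with library size only.

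The amino acid response was described by 14 genes. They were ATF4 itself and genes known to act downstream of GCN2 and ATF4 when uncharged tRNA builds up. Of these, 6 rose, 7 fell and 1 did not pass, beside 40.9% higher and 38.7% lower over all tested genes. ATF4 itself rose from 987, 854 and 903 CPM to 1603, 1361 and 1509 CPM (log2 fold change 0.70, SE 0.0698, adjusted p = 3.32e-08). DDIT4, an inhibitor of mTORC1, rose from 44.8, 45.1 and 40.6 CPM to 472, 423 and 490.3 CPM (log2 fold change 3.41). TRIB3, a pseudokinase induced by ATF4 and DDIT3, rose by 1.81. In contrast, PHGDH, the first enzyme of serine synthesis, fell from 614, 603 and 571 CPM to 155, 136 and 166 CPM (log2 fold change -1.97, adjusted p = 9.24e-15). The 6 genes of the list for serine, one-carbon and asparagine synthesis (PHGDH, PSAT1, PSPH, SHMT2, MTHFD2 and ASNS), a subset singled out after its values were seen, all fell, from -1.97 to -0.67, and with library size only from -1.49 to -0.19. With TMM scaling, these enzymes and 14 of the 18 cytosolic synthetases fell with ATRA, and the ATF4 transcript rose. With library size only, 9 of the 18 fell. Whether these changes are linked was not tested.

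ATF4 protein is made when eIF2 is phosphorylated. Of 7 genes for eIF2, its kinases and its phosphatase subunits, 3 rose, 1 fell and 3 did not pass. Over all tested genes, 40.9% rose and 38.7% fell. EIF2AK3, the kinase PERK of the endoplasmic reticulum, rose by 2.03 and PPP1R15A, the inducible phosphatase subunit, by 1.86 (adjusted p = 6.24e-16 and 1.27e-15). EIF2AK2, the kinase activated by double-stranded RNA, fell by 1.66 (adjusted p = 1.89e-09). EIF2AK4, the gene of GCN2, did not pass (-0.09, adjusted p = 0.219), and its groups overlapped. Unscaled, its level was higher with ATRA (56.6, 63.7 and 59.0 CPM) than in Control (44.0, 45.7 and 47.3 CPM). Transcript levels do not measure charged tRNA, phosphorylation or enzyme activity, which were not analysed here.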

How the data were processed

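Poly(A) RNA of 3 ATRA and 3 Control cultures was sequenced. The authors cleaned reads with fastp and TrimGalore and deposited whole-number counts per gene, with GO and KEGG annotation; the submitters' processing notes name HISAT2, featureCounts and DESeq2. Versions of the aligner and counter, the genome build, the annotation and how multi-mapping or strand was treated are not given in the sources used here.

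Genes were kept by edgeR's filterByExpr (12588 of 15944), scaled by TMM and tested two-sided with edgeR's robust quasi-likelihood test over all 6 libraries, with Benjamini-Hochberg adjustment over all genes tested. The study's methods name R's t.test. As the values are counts, edgeR was used, and limma on log2(CPM + 1) was an alternative. The prior count of the log2 fold change was 0.125. Depth was 35532339 to 38012771 counts per library, and standard errors were wider for genes with few reads. Libraries within a group differed by more than sampling noise (chi-square per degree of freedom 5.01 to 18.4). The procedure was also run on simulated counts in which few genes changed. Most genes moved in these data, so that run does not bear on the shift in scaling.

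The members and lists were chosen with earlier results of these data known. Values in each library are given for up to 6 called members per direction with the largest change and no overlap, both genes of up to 4 amino acids whose genes differed most, GARS and KARS, and the 4 uncalled members with the highest level. From the companion lists, the 3 most changed called genes of each were named, with ATF4 and the 3 scaffolds, and only some of these have library values here. EIF2AK4, PSAT1, PSPH, SHMT2, MTHFD2 and ASNS were named outside this rule. The library values of QARS and EIF2AK4 and the counts of TARSL2 were also given outside it. Compartments were checked against the table's own GO terms, in which 17 of 17 mitochondrial synthetases carry a mitochondrial term and 18 of 19 cytosolic ones a cytosol or cytoplasm term. The terms do not separate the sets fully. A cytosol or cytoplasm term is also carried by 9 of the mitochondrial synthetases, and a mitochondrial term by 1 cytosolic one (HARS). KARS carries a mitochondrial term and GARS does not. AARSD1, PRORSD1 and MTRFR were matched to other identifiers after the table was seen. A result for 1 member is not reported here, although counts, medians and sums over the members include it. No sequences or promoters were used here. Tests were run with edgeR 4.0.16 (R 4.3.3), and the alternatives with DESeq2 1.42.0 and limma 3.58.1. Summaries and plots were made with pandas 2.3.3, SciPy 1.17.1 and matplotlib 3.10.9 under Python 3.11.15.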

Additional observations from a re-analysis of the deposited data

How the results depend on the processing

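All 33 calls among the members kept their direction and their side of the threshold under RLE or upper-quartile scaling, other expression filters, DESeq2, limma and the replicate block, and 31 to 33 did so with 1 library left out. Under scaling by library size only, 23 did and 6 turned sign. That scaling gave 7921 genes higher and 2861 lower, 4 cytosolic synthetases higher and 9 lower, 12 mitochondrial synthetases higher and 1 lower, and medians of -0.068 and 0.48. The log2 fold changes that turned were AIMP2 (0.12), CARS2 (0.42), DARS (0.44), EARS2 (0.29), EEF1E1 (0.064), FARSA (0.12), GARS (0.12), GFM1 (0.077), HARS (0.41), IARS2 (0.038), LARS (0.12), MARS (0.10), PSTK (0.44), TARS (0.00126) and WARS2 (0.40). EIF2AK4 was outside this comparison. With upper-quartile scaling the medians were -0.47 and 0.082, and the uncalled genes CARS2 (0.016), DARS (0.036), HARS (0.00384), PSTK (0.043) and WARS2 (0.00196) turned. PARS2 turned with RLE (-0.0146), DESeq2 (-0.0146), no filter (-0.00615) and some libraries left out (-0.057 to 0.091 over all 6), and PSTK with some libraries left out (-0.15 to 0.090). The study's threshold left 1730 genes higher and 2174 lower, 0 cytosolic synthetases higher and 1 lower, and 0 mitochondrial ones higher and 1 lower. A second cytosolic synthetase (2 higher) was called with upper-quartile scaling, a CPM of at least 1, the replicate block, GARS and KARS counted as cytosolic, or ATRA replicate 2 left out. With no expression filter, the cytosolic median was -0.50 and the difference of medians -0.49. Counting GARS and KARS as cytosolic gave a median of -0.48 and a change of the summed log2 ratio of -0.43, and medians in place of sums gave -0.39. With 1 library left out, the difference of medians ranged from -0.62 to -0.49, the mitochondrial median from -0.052 to 0.076, and the cytosolic calls higher from 1 to 2. Without Control replicate 1, the libraries of LARS/LARS2 no longer overlapped. Those of YARS/YARS2 no longer did without Control replicate 2 or without ATRA replicate 1, which made 16 pairs lower with ATRA in each case. Relative to the median of all genes (added after the data were seen), the medians were -0.58 (cytosolic) and -0.03 (mitochondrial) under TMM, RLE, upper-quartile and library-size scaling. The cause of these differences was not tested, apart from the shift in scaling. Replicate numbers are shared between the groups, but same-numbered libraries did not deviate together (r = 0.09, 0.03 and -0.08), so the numbers were not taken as pairs. With the replicate block, the difference of medians was -0.55.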
